A study of Mus musculus with 16 samples.

Results

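The IL-6 family was examined through 8 genes chosen by symbol: the cytokines Il6, Osm, Lif, Il11 and Clcf1, and the receptor chains Il6ra, Il6st and Osmr. These 8 genes were all found among the 47069 genes of the count table. The cells were bone marrow-derived macrophages (BMMs), which were grown from C57BL/6 mice aged 8 to 10 weeks in medium containing L929-conditioned supernatant. All BMMs were primed overnight with IFNγ (10 ng/mL) and were then activated for 1 hr with LPS (100 ng/mL) together with immune complexes of ovalbumin and anti-ovalbumin IgG (LPS/ICs). They received either DAPT (25 µM), a γ-secretase inhibitor (GSI) that blocks the cleavage of Notch receptors, or the vehicle DMSO (0.01%). The methods of the study place this treatment overnight before activation, while some of its figure legends give a shorter pretreatment. Effects of GSI from before and after activation cannot be told apart in these libraries. Each condition had 2 replicates, and no unstimulated BMMs and no BMMs stimulated with LPS alone were analysed here.

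Cytokines of the IL-6 family act through receptor complexes that contain gp130, the signaling chain encoded by Il6st. A second chain gives each complex its ligand specificity, and gp130 passes the signal through Janus kinases to STAT3 and through SHP2 to the MAP kinases. In macrophages, Il6 is a classical NF-κB and C/EBPβ target after TLR4 engagement, and SOCS3 binds gp130 and limits the response.

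With GSI, the mRNAs of Clcf1, Osm, Il6ra and Lif were lower than with DMSO, and Il6 and Il6st did not pass the test. Clcf1 was 36.2% and Osm 47.4% of its DMSO level. Il6ra, the ligand-binding chain for IL-6, was 58.5% and Lif 77% of its DMSO level. Il11 and Osmr had at most 3 reads in any library. Of the 6 members that could be tested, 4 were lower and 0 were higher at a false discovery rate (FDR) under 0.05 by edgeR's quasi-likelihood test. The count of higher members was also 0 at an unadjusted p under 0.05 and with DESeq2. Among all 13211 genes tested, 40.8% had an FDR under 0.05, 21.9% were lower and 19% were higher. The 6 tested members had levels above those of 63.9% (Lif) to 80.1% (Il6st) of the genes tested. The share that passed among genes of like level was not computed. The median log2 fold change of the 6 members was -0.58, against 0.01 for all genes tested.

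The 4 libraries held 42694655 to 56932059 counts, and the detection floor of 3 counts stood for 0.0527 to 0.0703 CPM, the unit in which counts are divided by library size. Macrophage markers were abundant, with a summed level of 12362 and 12570 CPM with DMSO and of 9559 and 10481 CPM with GSI, and 7 of the 9 markers were lower and 1 was higher with GSI. The summed fibroblast and stromal markers were low but higher with GSI, at 0.869 and 0.931 CPM against 0.558 and 0.652 CPM, with Col3a1 and Lum at 0, and the 1 marker tested, Acta2, was higher (log2 fold change 0.99, FDR = 0.0251). T and B cell markers summed to 0.558 and 0.511 CPM with DMSO against 1.18 and 0.79 CPM, and Cd4, the 1 marker tested, did not pass (FDR = 0.0525). Neutrophil markers overlapped between the groups, at 0.697 and 1.43 CPM against 1.12 and 1.4 CPM, with Elane and Prtn3 at 0, and the 2 markers tested did not pass. The summed dendritic cell markers, mostly Clec9a, were 186 and 179 CPM with DMSO and 113 and 115 CPM with GSI, with Siglech at 0, and of the 3 tested 2 were lower and 0 higher. The summed endothelial markers, mostly Kdr, were 12.4 and 12.3 CPM with DMSO and 34.5 and 31.8 CPM with GSI, with Tek and Emcn at 0. Of the 3 endothelial markers tested, Kdr was higher (log2 fold change 1.63, FDR = 2.28e-11), Pecam1 was lower (-1.01, FDR = 0.00211) and Cdh5 did not pass (-0.29). The part of these shifts in the results on the IL-6 family was not tested, and in bulk RNA fewer cells of a type and less RNA per cell cannot be told apart. The Notch target genes Hes1 and Hey1 had at most 5 counts in any library, so they gave no check of the inhibitor.

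All 8 members are protein-coding genes. On GRCm38, the cytokine genes lie at chr5:30013114-30019981 (Il6, plus strand), chr11:4236420-4241026 (Osm, plus strand), chr11:4257557-4272514 (Lif, plus strand), chr19:4214238-4223490 (Clcf1, plus strand) and chr7:4772373-4782859 (Il11, minus strand). Osm and Lif are neighbors, with 16530 bases between the end of Osm and the start of Lif. The receptor genes lie at chr3:89864059-89913196 (Il6ra, minus strand), chr13:112464070-112510086 (Il6st, plus strand) and chr15:6813577-6874969 (Osmr, minus strand).

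The 250 bases before the RefSeq gene start (GRCm38.p6) are shown for 2 members that were lower with GSI (Lif and Il6ra) and for the 2 tested members that did not pass the test (Il6 and Il6st), each on its coding strand from 5′ to 3′. The windows are chr5:30012864-30013113 for Il6, chr11:4257318-4257567 for Lif, chr3:89913197-89913446 for Il6ra and chr13:112463820-112464069 for Il6st. Capitals mark every match, on either strand, to the 6 motifs described in the next paragraph.
Il6: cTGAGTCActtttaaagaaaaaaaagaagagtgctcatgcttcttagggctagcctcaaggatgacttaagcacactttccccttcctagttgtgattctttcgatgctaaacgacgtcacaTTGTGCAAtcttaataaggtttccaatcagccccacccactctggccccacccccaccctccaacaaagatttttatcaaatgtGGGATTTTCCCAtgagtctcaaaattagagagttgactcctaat
Lif: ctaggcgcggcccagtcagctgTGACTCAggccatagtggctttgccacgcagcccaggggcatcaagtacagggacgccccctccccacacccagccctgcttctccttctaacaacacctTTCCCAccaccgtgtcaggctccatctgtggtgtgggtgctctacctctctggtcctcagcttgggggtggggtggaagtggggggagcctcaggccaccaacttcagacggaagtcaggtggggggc
Il6ra: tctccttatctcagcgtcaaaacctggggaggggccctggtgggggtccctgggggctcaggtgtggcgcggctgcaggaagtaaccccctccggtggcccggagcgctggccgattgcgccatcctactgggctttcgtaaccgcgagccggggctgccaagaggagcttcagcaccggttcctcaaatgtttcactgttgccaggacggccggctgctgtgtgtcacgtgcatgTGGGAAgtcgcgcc
Il6st: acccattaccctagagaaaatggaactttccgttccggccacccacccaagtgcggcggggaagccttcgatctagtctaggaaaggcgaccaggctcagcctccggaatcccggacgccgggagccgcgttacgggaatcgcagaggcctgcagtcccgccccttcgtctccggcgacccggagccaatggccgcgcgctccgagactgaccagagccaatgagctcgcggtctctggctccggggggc

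The motifs were an NF-κB site (GGGA, any base, then TTTCC), a C/EBP site (TTGCNNAA), an AP-1 site (TGANTCA), a cAMP response element (TGACGTCA), a STAT site (TTCNNNGAA) and the core of the site of RBPJ (TGGGAA), the DNA-binding partner of cleaved Notch. They were searched in windows from 250 bases before to 50 bases after the gene start, and such windows were used for 6 of the 8 members (Il6, Lif, Il11, Il6ra, Il6st and Osmr). Promoters of Osm and Clcf1 were not analysed here. The NF-κB letters were found in Il6 alone among these 6 members, from 44 to 35 bases before the start, and in 0.411% of 32851 mouse windows. Il6 was also the only one of them with the C/EBP letters, which 10.8% of all windows held. The AP-1 letters, found in 7.81% of all windows, were present in Il6, Lif, Osmr and the second window of Il11. The RBPJ letters were present in Il6, where they overlapped the NF-κB match by 4 bases, in Lif and in Il6ra, and in 25.6% of all windows. No match was found for the STAT letters (8.3% of all windows) or the cAMP response element (1.79%). These matches are descriptions of letters, and binding of a factor was not measured.

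Clcf1 encodes cardiotrophin-like cytokine factor 1, a ligand of the complex of CNTFR, LIFR and gp130. Its level was 67.9 and 79.1 CPM in the DMSO libraries and 25.3 and 28 CPM in the GSI libraries. Both GSI libraries lay far below both DMSO libraries, and the groups did not overlap. The mean was 73.5 ± 7.93 CPM (SD, n = 2) with DMSO and 26.7 ± 1.97 CPM (n = 2) with GSI. The log2 fold change was -1.46 (SE 0.0856, 95% interval -1.64 to -1.29, FDR = 7.03e-11), a 2.76-fold lower level, and 2.23% of the genes tested had a lower log2 fold change. This value lay just short of the study's second threshold, an absolute log2 fold change above 1.5 (2.83-fold), which none of the members and 2.91% of all genes tested passed. Without DMSO replicate 1 it was -1.57 and without GSI replicate 2 it was -1.54, so in these fits Clcf1 passed both thresholds. Clcf1 shares 311 exon bases with another annotated gene on the same strand, and the reads there could not be assigned to one of them.

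Oncostatin M, encoded by Osm, is a macrophage product that signals through gp130 paired with OSMR or LIFR. Osm was at 74.9 and 81 CPM with DMSO and at 31.5 and 42.4 CPM with GSI. The groups did not overlap, although the GSI libraries differed from each other by more than the DMSO libraries did. The mean fell from 77.9 ± 4.34 CPM (SD, n = 2) to 36.9 ± 7.69 CPM (n = 2). The log2 fold change was -1.08 (SE 0.0999, 95% interval -1.29 to -0.87, FDR = 3.89e-08), which is 2.11-fold lower. It was -0.88 without GSI replicate 1 and -1.31 without GSI replicate 2.

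Leukemia inhibitory factor, encoded by Lif, signals through LIFR and gp130. Its level was 34.9 and 36.7 CPM with DMSO and 29.6 and 25.6 CPM with GSI. Both GSI libraries were below both DMSO libraries, but the step was smaller than for Osm, its neighbor on the chromosome. The mean fell from 35.8 ± 1.3 CPM (SD, n = 2) to 27.6 ± 2.88 CPM (n = 2), a log2 fold change of -0.38 (SE 0.0839, 95% interval -0.55 to -0.20, FDR = 0.00117). The 95% intervals of Lif and Osm did not overlap. The difference between the genes was not tested itself.

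Il6 encodes IL-6, the pro-inflammatory cytokine that gives the family its name. Its level was 34.9 and 27.7 CPM with DMSO and 34.6 and 29.7 CPM with GSI. The groups overlapped almost completely, and in each group replicate 1 was the higher library. The mean was 31.3 ± 5.09 CPM (SD, n = 2) with DMSO and 32.1 ± 3.51 CPM (n = 2) with GSI. The log2 fold change was 0.04 (SE 0.0991, FDR = 0.762), and its 95% interval of -0.16 to 0.25 bounds the changes that these libraries leave possible. Its sign depended on single libraries, since it was -0.12 without DMSO replicate 2 and -0.07 without GSI replicate 1.

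Il11, which encodes IL-11, a ligand of the complex of IL-11RA and gp130, had 0, 0 and 0 counts in both DMSO libraries and GSI replicate 1, and 2 counts in GSI replicate 2. A count of 0 allows up to 3 counts, or at most 0.0703 CPM. Il11 had no more than 3 counts in any library, although a count of 2 leaves a higher level possible than a count of 0 does. A difference between the groups was not detectable at this depth.

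**Figure D1:**
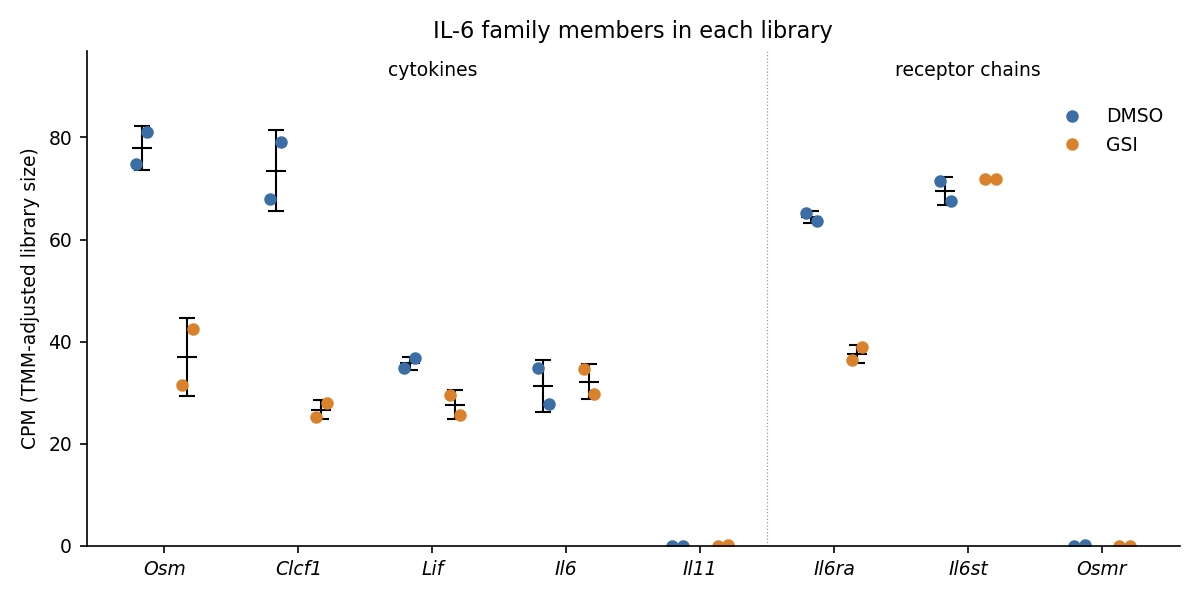
Level of each of the 8 members in CPM (vertical axis, linear) in the 2 DMSO libraries (blue) and the 2 GSI libraries (orange), where each point is a library and the bars give the mean and SD. The GSI points of Osm, Clcf1, Lif and Il6ra lie below their DMSO points, those of Il6 and Il6st lie at about the same height, and Il11 and Osmr lie at the bottom of the axis.

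Among the receptor chains, Il6ra encodes the IL-6 receptor α chain, which binds IL-6 and lets it engage gp130. Its level was 65.2 and 63.6 CPM with DMSO and 36.4 and 38.9 CPM with GSI. The replicates of each group were close and the groups did not overlap. The mean fell from 64.4 ± 1.17 CPM (SD, n = 2) to 37.6 ± 1.78 CPM (n = 2), with a log2 fold change of -0.77 (SE 0.0739, 95% interval -0.93 to -0.62, FDR = 5.85e-08), or 1.71-fold lower. Il6ra shares 242 exon bases with the antisense gene Gm42809, which had at most 2 counts in any library.

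Il6st was at 71.4 and 67.5 CPM with DMSO and at 71.8 and 71.9 CPM with GSI. Both GSI libraries were above both DMSO libraries, by a margin of less than 1 CPM over DMSO replicate 1. The mean was 69.5 ± 2.76 CPM (SD, n = 2) with DMSO and 71.9 ± 0.0726 CPM (n = 2) with GSI. The log2 fold change of 0.05 (SE 0.071, 95% interval -0.10 to 0.20, FDR = 0.615) did not pass the test. Groups without overlap were thus seen for 5 of the 6 tested members, against 70.6% of all genes tested.

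Osmr, the oncostatin M receptor chain, was represented by 1 and 3 counts in the DMSO libraries and by 1 and 0 counts in the GSI libraries. No library exceeded 3 counts, although a count of 3 leaves a higher level possible than a count of 0 does. The mRNA of this receptor chain, which pairs with gp130 for oncostatin M, was thus at or near the detection floor. A difference between the groups could not be seen at this depth. Il11 and Osmr were below the filter on low counts and were not tested. In a fit without that filter their FDR was 0.541 and 0.616.

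**Figure D2:**
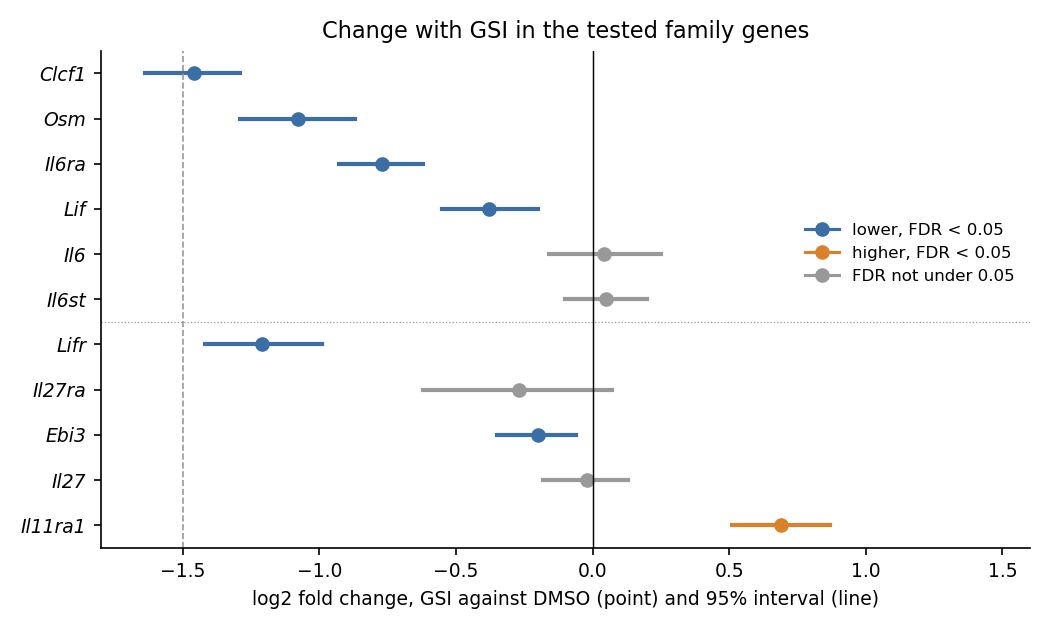
Log2 fold change with GSI against DMSO (horizontal axis) of the 6 tested members above the dotted line and of the other tested family ligands and receptors below it, where points are estimates, lines are 95% intervals, blue is lower and orange higher at an FDR under 0.05, and gray did not pass. Clcf1 at -1.46 comes nearest to the dashed line at -1.5, Il6 and Il6st sit at 0.04 and 0.05, and Il11ra1 at 0.69 is the one plotted gene that was higher at an FDR under 0.05.

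Levels were compared between genes only after division by the length of all exons of a gene, as TPM (counts per kilobase of exon, scaled to the same total in each library). With DMSO the order of these TPM values was Osm (107 ± 4.59, SD, n = 2), Clcf1 (60.4 ± 5.74), Il6 (40.4 ± 7.09), Lif (25.8 ± 0.605), Il6ra (23.3 ± 0.728) and Il6st (19.6 ± 1.03), with Osmr and Il11 at or near 0. No neighbors in this order overlapped between libraries. The order of Il6ra and Il6st depended on the length used, since with the longest transcript Il6ra was at 18.2 ± 0.553 and Il6st at 19.6 ± 1.02.

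With GSI the TPM values of the members lay closer together. Osm was at 41.2 and 55.9 and Il6 at 42.4 and 36.6, so that these cytokines overlapped. Lif at 20.2 and 17.6 overlapped with both Clcf1 at 19.7 and 22.1 and Il6st at 19.2 and 19.4. Clcf1 lay above Il6st without overlap on this length, and below it with the longest transcript (16.5 and 18.5 against 19.2 and 19.4), so their order depended on the length used. Lif, at 17.1 and 14.8 with the longest transcript, also lay below Il6st without overlap, so the overlap of Lif and Il6st depended on the length too. By exon length, Il6ra at 12.5 and 13.5 was below all of these genes. The cytokine with the highest level per length with DMSO, Osm, thus overlapped with Il6 in the GSI libraries.

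The ratio of Il6ra to Il6st in TPM, the balance of the IL-6-binding chain to the shared signaling chain, went from 1.17 and 1.21 with DMSO to 0.651 and 0.695 with GSI. With the longest transcript it went from 0.917 and 0.945 to 0.509 and 0.543. Which chain was higher with DMSO thus depended on the length used. By exon length, the ratio of Osm to Il6 went from 2.29 and 3.13 to 0.972 and 1.53. Clcf1 to Il6 went from 1.24 and 1.82 to 0.465 and 0.603, and Lif to Il6 from 0.558 and 0.74 to 0.477 and 0.481. None of these 4 ratios overlapped between the groups. Groups without overlap were also seen for 70.6% of all single genes tested. The ratios to Il6 share a denominator, so they are not separate results. With 2 libraries against 2, an exact permutation test cannot give a p-value below 0.333, so no p-value is given for the ratios.

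**Figure D3:**
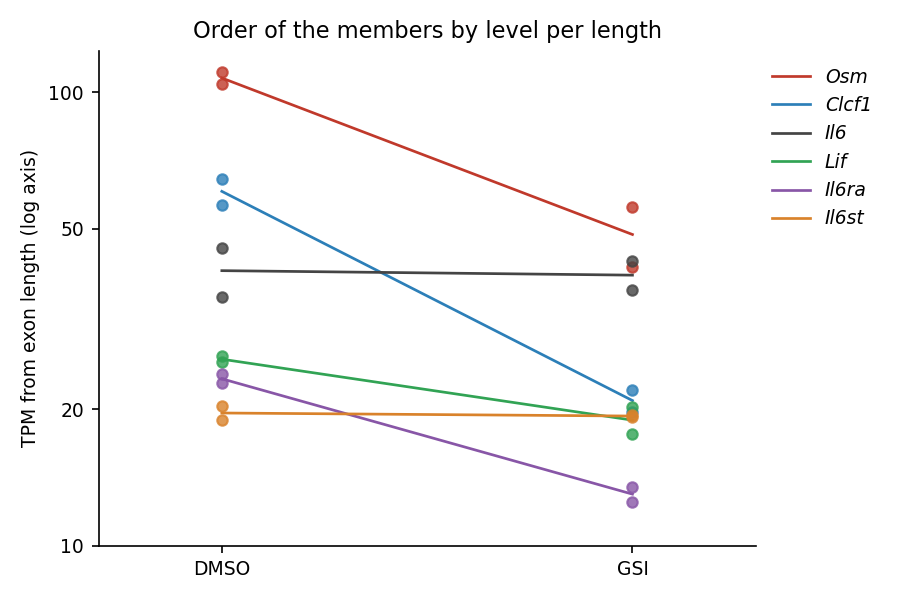
TPM computed from exon length (vertical log axis) of the 6 members above the detection limit in the DMSO libraries (left) and GSI libraries (right), where points are libraries and lines join the group means. Osm goes from the top to overlap with Il6, Clcf1 comes to lie beside Lif and Il6st, and the lines of Il6 and Il6st are nearly level.

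For each of the 6 expressed members, the 3 genes with the most similar pattern over the 4 libraries were found among 7581 genes of at least 10 CPM, by the Euclidean distance of centered log2(CPM + 0.5). For Clcf1 these were Trpm2 (distance 0.0909), Olr1 (0.122) and Igfbp4 (0.135). For Osm they were Gdpd5 (0.118), Itgb5 (0.129) and Bub1b (0.146), and for Il6ra Gcnt1 (0.0269), Cdk19 (0.0341) and Siglec1 (0.0387). Lif was nearest to Arhgap39 (0.00991), Foxk1 (0.0289) and Gltscr1l (0.044). Il6, which differed more between replicates than between groups, was nearest to Snx7 (0.0512), Usp21 (0.0673) and Zfp422 (0.0735). Il6st was nearest to Rgs19 (0.00695), Casp1 (0.00791) and Smim14 (0.00936). None of these genes is a member of the family, and with 4 libraries such likeness is a description only.

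The other genes of the pathway were taken from lists of 87 distinct genes, of which 77 could be tested. Of these, 34 were lower and 9 were higher at an FDR under 0.05. Against the backgrounds of 21.9% lower and 19% higher among all genes tested, each list is given by its counts and its median log2 fold change.

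Among 6 other receptor chains of the family, 3 could be tested, with 1 lower, 1 higher and a median of -0.27. Lifr, the chain that joins gp130 for LIF, was at 14.1 and 13.1 CPM with DMSO and at 5.77 and 5.99 CPM with GSI, with no overlap. Its log2 fold change was -1.21 (SE 0.104, FDR = 1.47e-08). Il11ra1, the binding chain for IL-11, was at 13.8 and 13.7 CPM with DMSO and at 21.6 and 22.6 CPM with GSI, a log2 fold change of 0.69 (SE 0.0862, FDR = 2.24e-06). Lifr thus moved in the same direction as its ligand Lif, and Il11ra1 rose while its ligand Il11 was at or near 0 counts in every library. Cntfr, the binding chain that CLCF1 uses, was at 0 in all libraries. The ratio of Lifr to Il6st in TPM went from 0.204 and 0.199 with DMSO to 0.0828 and 0.0858 with GSI.

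Of 7 other cytokines related to the family, 2 could be tested, with a median of -0.11. These were the subunits of IL-27, a cytokine that signals through IL27RA and gp130. Il27 was at 53.5 and 56.9 CPM with DMSO and at 53.3 and 55.4 CPM with GSI, and its log2 fold change of -0.02 (FDR = 0.826) did not pass. Ebi3, its partner chain, was at 76.6 and 80.2 CPM with DMSO and at 69 and 67.2 CPM with GSI, with a log2 fold change of -0.20 (FDR = 0.0269). This call was lost in 3 of the 4 fits that left out 1 library, while the log2 fold change was -0.24 without DMSO replicate 1 (FDR = 0.052), -0.17 without DMSO replicate 2 (FDR = 0.181) and -0.18 without GSI replicate 2 (FDR = 0.0952).

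Of the 4 genes for shedding of IL-6 receptor from the cell surface, 1 was lower and 0 were higher, with a median of -0.20. The gene that passed was Adam10, a metalloprotease, at 251 and 232 CPM with DMSO and 147 and 159 CPM with GSI (log2 fold change -0.66, SE 0.0733, FDR = 4.58e-07).

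The 12 JAK-STAT and MAPK signal transducers downstream of gp130 had 7 lower, 1 higher and a median of -0.21. Gab1, an adaptor that links SHP2 to the MAP kinases, was at 5.3 and 5.32 CPM with DMSO and at 2.48 and 2.81 CPM with GSI, or 49.9% of its DMSO level (FDR = 8.21e-06). The log2 fold change of Stat5a, a transcription factor, was -0.92 (SE 0.0828, FDR = 2.35e-08) and that of Jak2, a Janus kinase, was -0.52 (SE 0.0689, FDR = 4.24e-06). Jak1, the main kinase bound to gp130, was at 251 and 244 CPM with DMSO and at 214 and 218 CPM with GSI (log2 fold change -0.20, FDR = 0.0266). Stat3, the main transcription factor of the pathway, was at 461 and 465 CPM with DMSO and at 386 and 413 CPM with GSI (log2 fold change -0.21, FDR = 0.0221). With 1 library left out, the log2 fold change ran from -0.22 to -0.18 for Jak1 and from -0.26 to -0.16 for Stat3, so the size of these small differences changed little while the calls did. The FDR of both missed 0.05 without DMSO replicate 1, without DMSO replicate 2 and without GSI replicate 1, at 0.0735 to 0.164 for Jak1 and 0.0804 to 0.13 for Stat3. Without DMSO replicate 1, 3 of the 12 genes were lower, and without GSI replicate 1, 0 were higher.

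Of 9 feedback inhibitors, 3 were lower and 1 was higher, with a median of -0.01. Socs3, the inhibitor that binds gp130, was at 1567 and 1634 CPM with DMSO and at 1608 and 1571 CPM with GSI. Its libraries overlapped, and its log2 fold change of -0.01 (SE 0.0732, 95% interval -0.16 to 0.14, FDR = 0.927) did not pass. Cish, a feedback inhibitor of STAT5 signaling, was at 43.7 and 47 CPM with DMSO and at 20.3 and 23.6 CPM with GSI (log2 fold change -1.05, SE 0.0854, FDR = 6.3e-09). Socs1, which inhibits Janus kinases directly, was higher, at 39 and 43.2 CPM with DMSO and at 58.7 and 54.5 CPM with GSI (log2 fold change 0.46, SE 0.0776, FDR = 7.46e-05). Pias3, an inhibitor of STAT3, had a log2 fold change of -0.33 (FDR = 0.0148). Without DMSO replicate 2, and likewise without GSI replicate 2, 1 of the 9 genes was lower, and without GSI replicate 2, 2 were higher.

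Of 21 genes known as STAT3 targets, 11 were lower and 3 were higher, with a median of -0.19. Saa3, an acute-phase protein gene, was at 9.09 and 9.64 CPM with DMSO and at 112 and 103 CPM with GSI (log2 fold change 3.51, SE 0.0855, FDR = 7.91e-17). Lcn2, which encodes the iron-scavenging protein lipocalin 2, was represented by 6 and 21 counts in the DMSO libraries and by 44 and 51 counts in the GSI libraries (log2 fold change 1.85, SE 0.357, FDR = 0.000319). Il10, the anti-inflammatory cytokine gene, moved the other way, from 309 and 357 CPM to 79.6 and 110 CPM (log2 fold change -1.81, SE 0.109, FDR = 1.11e-10). Targets of STAT3 therefore differed among themselves in direction, as did all genes tested (21.9% lower and 19% higher). The level of Socs3 did not pass the test.

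Regulators of Il6 itself were grouped as transcription factors and as factors that act on its mRNA. Of 22 transcriptional regulators, 20 could be tested, with 7 lower, 3 higher and a median of -0.15. Fosb (log2 fold change -2.21, SE 0.088, FDR = 2.34e-13) and Fosl2 (-1.46, SE 0.0796, FDR = 2.48e-11) encode AP-1 subunits. Rel, an NF-κB subunit, was at 489 and 487 CPM with DMSO and at 286 and 305 CPM with GSI (log2 fold change -0.72, SE 0.0712, FDR = 9.11e-08). The count of higher genes was 1 without DMSO replicate 1, without GSI replicate 1 and with DESeq2. Of 11 regulators of the decay of Il6 mRNA, 4 were lower and 1 was higher, with a median of -0.15. Zfp36l1, a protein that binds AU-rich elements, fell from 244 and 224 CPM to 87 and 83.4 CPM (log2 fold change -1.46, SE 0.073, FDR = 8.01e-12). Zc3h12a, which encodes the endonuclease Regnase-1, was at 253 and 255 CPM with DMSO and at 187 and 191 CPM with GSI (log2 fold change -0.43, SE 0.0685, FDR = 4.4e-05). Its relative Zc3h12c had a log2 fold change of -0.36 (FDR = 0.000327). The other 6 of the 11 did not pass, and a link between any of these regulators and the level of Il6 was not tested.

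**Figure D4:**
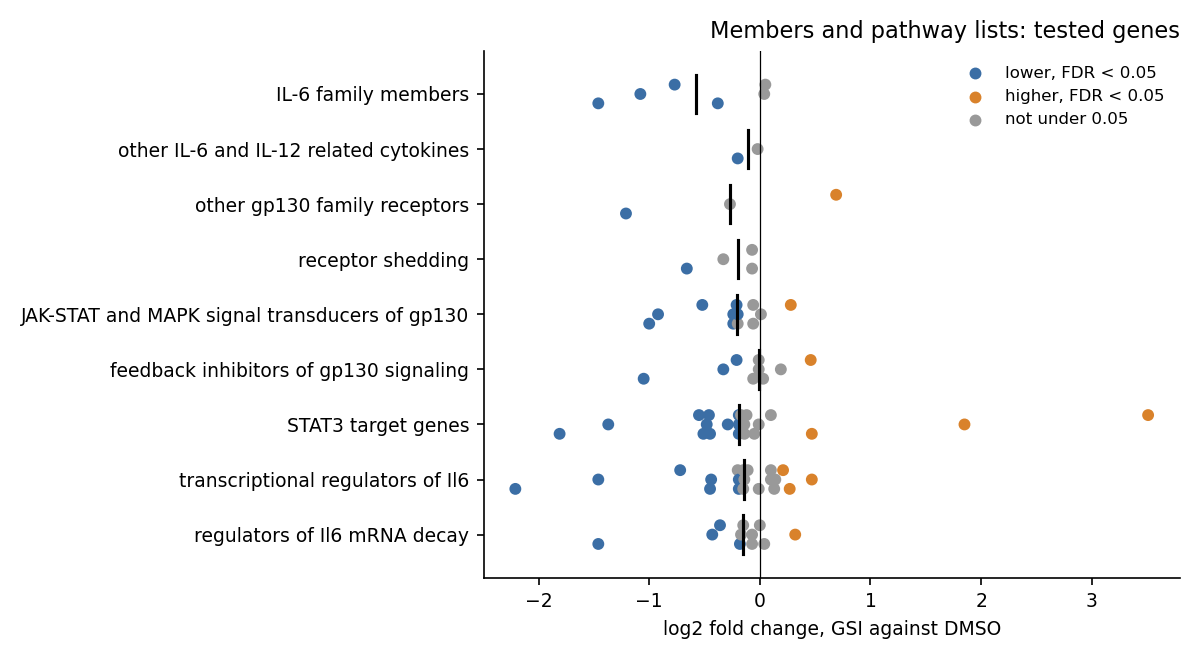
Log2 fold change with GSI against DMSO (horizontal axis) of every tested gene of the 8 members and of the 8 pathway lists (rows), where points are genes, black bars are the median of a list, blue is lower and orange higher at an FDR under 0.05, and gray did not pass. The median of the members lies at -0.58 and those of the other lists between -0.27 and -0.01, and the point far to the right at 3.51 is Saa3.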

How the data were processed

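BMMs of 2 groups (DMSO and GSI), with 2 replicates each and 4 columns per replicate, were compared. According to the methods of the study, TruSeq stranded mRNA libraries were sequenced on an Illumina NextSeq instrument, and adapters were removed with Trimmomatic. The submitters' processing notes list bcl2fastq, STAR 2.5.0a, Picard and HTSeq, and the builds mm10 (GRCm38, as in the methods) and mm9. The authors deposited raw HTSeq counts per gene and column, without normalization. The strand setting and mode of HTSeq are not given in the sources used here. Reads of overlapping genes on one strand cannot be separated again from such counts.

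The columns of a replicate were taken as sequencing runs, because the labels number them without defining them, and were summed to 4 libraries. The runs differed by about the sampling noise: chi-square per degree of freedom was 1.01 to 1.03 over genes with at least 40 counts, and 0 genes passed adjustment (5.06% to 5.58% had an unadjusted p under 0.05). The labels do not say that replicates came from separate mice or cultures, so p-values measure the spread between these libraries, which may be technical. Groups of 2 cannot give an exact p below 0.333.

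Differential expression was tested with edgeR 4.0.16 in R 4.3.3 (filterByExpr, TMM, glmQLFit and glmQLFTest, group as the only factor) with Benjamini-Hochberg adjustment over 13211 genes. CPM values used TMM-adjusted library sizes. The SE was the size of the log2 fold change divided by the square root of F. The thresholds were those of the study, 0.05 for the FDR and 1.5 for the size of the log2 fold change. The floor was 3 counts per library, which covers counting error only. Positions and exon lengths came from GENCODE M21 (98.95% of gene IDs found). Promoter windows came from RefSeq on GRCm38.p6. Scripts were tested on simulated counts.

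The members, gene lists and tests were chosen with earlier results of these data known. Named genes were the members, the 3 largest changes with an FDR under 0.05 of each pathway list, a few pathway genes (Socs3, Stat3, Jak1, Lifr, Cntfr, Il11ra1, Ebi3, Il27), Hes1 and Hey1, and the 3 genes nearest to each member. Markers named beside their lists, and Gm42809, were chosen after their values were seen. Alternatives were RLE factors or none at all, DESeq2 1.42.0, 3 other filters on low counts, protein-coding genes only, genes without exons on the other strand, the likelihood ratio test, the replicate number as a block, the longest transcript as the length, and leaving out each library, where the lone library of a group is assumed to vary like the others.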

Additional observations from a re-analysis of the deposited data

How the results depend on the processing

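Clcf1, Osm and Lif were lower at an FDR under 0.05 in all 14 alternatives, and Il6ra in the 13 that could test it. Il6st did not pass in any of 14. The log2 fold changes ran from -1.57 to -1.35 for Clcf1, -1.31 to -0.88 for Osm, -0.82 to -0.73 for Il6ra, -0.49 to -0.27 for Lif and 0.01 to 0.09 for Il6st. Il6 ran from -0.12 (FDR 0.402, without DMSO replicate 2) and -0.07 (FDR 0.611, without GSI replicate 1) to 0.21 (FDR 0.111, without DMSO replicate 1). The cause of these reversals was not tested. Other reversed signs, all without 1 library and far from the threshold, were Socs3 (-0.04 to 0.02 over these fits, with 0.01 without GSI replicate 2) and Il27 (0.02 and 0.00). With 1 library left out, 4162 to 4978 genes passed the FDR and 399 to 436 passed both thresholds (5392 and 385 with all libraries). The same fits gave 0 to 1 members past both thresholds, and 24 to 31 lower and 6 to 11 higher pathway genes.

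Genes past both thresholds numbered 556 without a filter on low counts. They numbered 154 with at least 10 counts in every library and 188 with more than 1 CPM in at least 2 libraries. There were 246 among protein-coding genes and 179 among genes without exons on the other strand. The last setting, which tests fewer genes, gave 3571 genes at an FDR under 0.05 and 18 lower pathway genes. With the replicate number as a block, 6444 genes had an FDR under 0.05 and the same 4 members passed. The labels do not tie the numbers to a shared source, and with 2 pairs the deviations of same-numbered libraries had a correlation of 0.249 across 7581 genes. DESeq2 called 4063 genes. Levels near 3 counts, as for Il11 and Osmr, cannot be compared at this depth.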
